A study of Rattus norvegicus with 9 samples.

Results

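The Wnt signalling genes described here are the ligands, receptors, secreted antagonists and first nuclear effectors of the pathway, as measured in gastric lymphatic vessels of the rat. They were taken from the authors' gene table by symbol: Wnt, Fzd, Sfrp, Rspo1 to Rspo4, Dkk1 to Dkk4, Lrp5, Lrp6, Wif1, Axin, Lef1 and the Tcf7 genes. That gave 48 of 18964 genes, of which 39 were among the 14643 genes with enough counts to test. The 48 were 18 Wnt ligands, 10 Frizzled receptors, 2 co-receptors, 4 R-spondins, 4 Sfrp genes, 4 Dkk genes, Wif1, Axin2 and 4 TCF/LEF factors.

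Messenger RNA was sequenced from vessels of wild-type male Sprague-Dawley rats weighing 180 to 220 g, whose age the labels do not give, all fasted for 12 h. The 9 libraries formed 3 groups of 3. BXD rats stood singly for 4 h in a pool filled to 15 cm and held at 22 °C, a stress that ulcerates the stomach, and 30 min later received Banxia Xiexin decoction, a Chinese herbal preparation, by gavage at 10 ml per kg. Model rats had the same stress and then a gavage without the decoction, given as saline in the sample labels and as distilled water in the protocol. Control rats were not stressed and received distilled water. The sources used here do not give the interval from gavage to tissue collection. Each group had 6 rats. No label ties a library to a rat, so p-values measure only the spread between these libraries, which may be technical.

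Total estimated counts ran from 12313823 to 13455701 per library. All 12 lymphatic endothelial markers examined were detected in every library, and their summed level was 1432 to 2077 CPM in BXD, 988 to 1750 CPM in model and 1115 to 1258 CPM in control libraries (CPM is the count of a gene relative to the composition-scaled library size). The tissue also held other cell types, whose markers differed between the groups. Fat cell markers summed to 9239 to 13647 CPM in BXD, 14395 to 26737 CPM in model and 5008 to 6077 CPM in control libraries. Smooth muscle markers summed to 6724 to 10273 CPM in BXD, 2384 to 4107 CPM in model and 4833 to 7256 CPM in control libraries. Striated muscle markers reached 7468 and 3922 CPM in BXD replicates 1 and 3, against 66.1 CPM in BXD replicate 2, at most 422 CPM in model and at most 35.6 CPM in control libraries.

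Wnt proteins are lipid-modified secreted ligands that bind Frizzled receptors on nearby cells. With the co-receptors Lrp5 and Lrp6 they stabilise beta-catenin, which then works with TCF/LEF factors at target genes such as Axin2. Without these co-receptors, ligands such as Wnt5a act on cell shape and movement through Ror and Ryk receptors and planar polarity proteins. R-spondins keep Frizzleds on the cell surface, Sfrp proteins and Wif1 bind the ligands, and Dkk1, Dkk2 and Dkk4 block the co-receptors. In endothelium, Wnt signalling is known for its part in forming the blood-retinal barrier, through Fzd4, and in the development of lymphatic valves.

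Model and control vessels were compared to see the stress without the decoction. By the sample labels, though not by the protocol, their gavage also differed (saline in model, distilled water in control), and these cannot be told apart. Fzd4, Fzd5, Fzd9 and Lrp6 were higher in model vessels, and Fzd1, Fzd2, Fzd6, Fzd8 and Lrp5 were lower. Among the secreted proteins Wnt4 was higher, and Wnt5a, Wnt6 and Sfrp2 were lower. With Lef1, which was higher, these made 14 of the 39 tested genes (35.9%), 6 higher and 8 lower, at an adjusted p under 0.05 (edgeR quasi-likelihood test, Benjamini-Hochberg adjustment over all genes tested; genes past it are referred to as called). Over all tested genes 42.2% were called in the same comparison, 21.6% higher and 20.6% lower. The libraries of the groups did not overlap for 9 genes that were higher and 11 that were lower in model, where 28.9% and 29.4% of all tested genes (58.3% together) were separate in those directions. The median log2 fold change of the 39 genes was -0.07, against -0.01 over all genes, and the median size was 0.62, against 0.49 over all genes. In bulk tissue, fewer cells of a type and less RNA per cell cannot be told apart, for these and all results that follow.

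Of the 8 Frizzled genes tested, 7 were called in model against control, 3 higher and 4 lower. Fzd4, the receptor for the non-Wnt ligand norrin as well as for Wnts, was the most abundant of them in stressed vessels. It had 749, 428 and 385 CPM in BXD, 606, 682 and 576 CPM in model and 291, 255 and 291 CPM in control libraries. Every stressed library was above every control library. The level was 2.23-fold higher in model than in control (log2 fold change 1.15, SE 0.23, edgeR adjusted p = 0.00472) and 1.87-fold higher in BXD than in control (log2 fold change 0.90, SE 0.23, edgeR adjusted p = 0.0174). The model call held whichever of the 9 libraries was left out, whereas the BXD call was lost without control replicate 2 or 3, where the adjusted p reached 0.0649.

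Fzd8, Fzd1, Fzd6 and Fzd2 went the other way. Fzd8 had 13.4, 13.8 and 15.9 CPM in BXD, 15.5, 11.1 and 8.73 CPM in model and 34.9, 33.2 and 33.8 CPM in control libraries, so the stressed libraries all lay below the control libraries. It was 2.88-fold lower in model than in control (log2 fold change -1.53, SE 0.19, edgeR adjusted p = 0.000794) and 2.36-fold lower in BXD than in control (log2 fold change -1.24, SE 0.19, adjusted p = 0.0023). The deposited estimated counts of Fzd8 were not whole numbers in 3 of 3 BXD and 3 of 3 model libraries and were whole in the control libraries, and the part of this in the difference was not tested. Fzd1 had 31.2, 33.2 and 28.6 CPM in BXD, 21.4, 19.5 and 25.7 CPM in model and 38.5, 55.8 and 52.4 CPM in control libraries, with no overlap between any of the groups. Its log2 fold change was -1.14 (SE 0.16, edgeR adjusted p = 0.00124) for model against control and -0.66 (SE 0.16, adjusted p = 0.0152) for BXD against control, and the second of these was lost without control replicate 2 or 3 (adjusted p up to 0.0647).

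Fzd6, a receptor that serves planar polarity, had 139, 126 and 96.8 CPM in BXD, 107, 64.8 and 86.4 CPM in model and 154, 160 and 200.1 CPM in control libraries. Model libraries lay below all control libraries, and the log2 fold change was -0.99 (SE 0.20, edgeR adjusted p = 0.00534). BXD libraries also lay below control, with a log2 fold change of -0.51 (95% interval -0.97 to -0.06, adjusted p = 0.0828) that did not pass. Fzd6 was called lower in BXD by limma on FPKM, with library size alone, under upper quartile scaling and without model replicate 2. The authors' DESeq2 q-value for it was 0.0308. Fzd2 had 5.93, 3.06 and 3.77 CPM in BXD, 7.80, 3.76 and 3.27 CPM in model and 9.51, 10.1 and 10.7 CPM in control libraries. The control libraries were again the highest, with log2 fold changes of -1.03 (SE 0.35, edgeR adjusted p = 0.042) for model and -1.25 (SE 0.36, adjusted p = 0.0273) for BXD against control. The Fzd2 calls were sensitive to single libraries. The model call was lost without any of control replicates 1, 2 and 3, model replicates 2 and 3 or BXD replicate 3 (adjusted p up to 0.131), and the BXD call without any of the 3 control replicates or BXD replicates 2 and 3 (adjusted p up to 0.0863).

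Fzd5 and Fzd9 were higher but scarce. Fzd5 had 2.25, 1.49 and 1.06 CPM in BXD, 1.58, 2.42 and 1.52 CPM in model and 0.781, 0.455 and 0.911 CPM in control libraries, from 7 to 27 counts per library. Both stressed groups lay above control, and the model call (log2 fold change 1.35, SE 0.42, edgeR adjusted p = 0.0286) was lost without any of the 3 control replicates or model replicate 2 (adjusted p up to 0.105) and with library size alone. In BXD against control the Fzd5 value was 1.15 (95% interval 0.21 to 2.09, adjusted p = 0.0639). Fzd9 had 2.09, 1.10 and 1.13 CPM in BXD, 1.93, 0.806 and 2.05 CPM in model and 0.142, 0.519 and 0.280 CPM in control libraries, again without overlap between stressed and control libraries. Its log2 fold changes were 2.30 (SE 0.56, edgeR adjusted p = 0.0112) for model and 2.14 (SE 0.56, adjusted p = 0.02) for BXD against control, from as few as 2 counts in a library, and the BXD call was lost without control replicate 1 or 3 or BXD replicate 1 (adjusted p up to 0.0711).

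Fzd3 was tested and not called in any comparison (FPKM 0.360 to 0.790 over the 9 libraries). Fzd7 and Fzd10 failed the low-count filter. Fzd7 had 1, 2 and 5 counts in BXD, 1, 0 and 2 counts in model and 16, 7 and 5 counts in control libraries, and Fzd10 had 2 to 14 counts over all libraries. With no low-count filter Fzd7 was called lower in model against control, with a log2 fold change of -2.83 that rests on 3 counts in the model group and depends on the fit's handling of low counts.

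**Figure D1:**
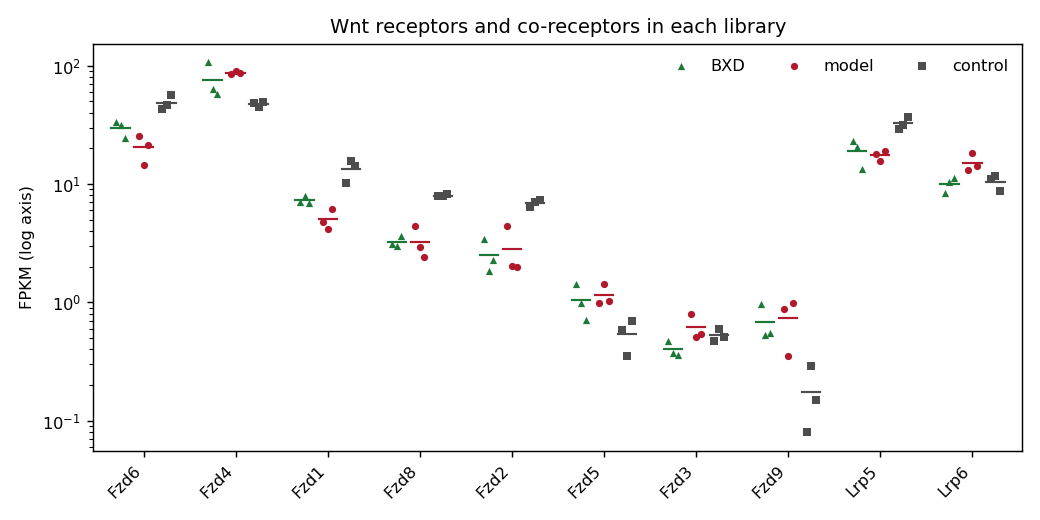
Level in FPKM (fragments scaled by gene length and library depth, log axis) of the 8 tested Frizzled genes and the co-receptors Lrp5 and Lrp6. Points are libraries and lines are group means of 3, with BXD as green triangles, model as red circles and control as grey squares. Fzd4, Fzd5 and Fzd9 lay higher in both stressed groups than in control, and Fzd1, Fzd2, Fzd6 and Fzd8 lay lower.

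The promoters of Fzd4 and Fzd8 are shown because these receptors moved furthest apart among the Frizzleds above 5 CPM in every library. The sequences are RefSeq's, on build GRCr8, and span 250 bases before to 50 bases after the annotated start. Both lie on the plus strand, Fzd4 at chr1:152692257-152692556 and Fzd8 at chr17:62009744-62010043. Neither window holds a TCF/LEF site (CTTTGAA or CTTTGAT, either strand), so neither has capitals.
Fzd4: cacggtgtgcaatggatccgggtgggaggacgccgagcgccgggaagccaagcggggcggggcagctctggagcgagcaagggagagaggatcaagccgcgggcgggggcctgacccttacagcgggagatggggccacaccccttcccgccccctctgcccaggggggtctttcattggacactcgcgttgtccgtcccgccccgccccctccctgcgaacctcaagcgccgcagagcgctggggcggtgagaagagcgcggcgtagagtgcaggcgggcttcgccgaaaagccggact
Fzd8: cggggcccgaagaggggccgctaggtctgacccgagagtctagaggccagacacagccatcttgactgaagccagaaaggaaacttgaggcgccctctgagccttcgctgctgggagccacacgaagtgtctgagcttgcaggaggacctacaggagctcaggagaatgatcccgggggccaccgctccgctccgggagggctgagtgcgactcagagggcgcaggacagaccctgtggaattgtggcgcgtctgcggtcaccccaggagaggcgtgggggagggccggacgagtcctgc

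Because genes can be compared per length in FPKM, the makeup of the receptor pool was also computed within each library, a choice made after the values had been seen. The summed Frizzled FPKM was 96.9 to 156 in BXD, 117 to 127 in model and 117 to 137 in control libraries. Within that sum Fzd4 took 61.9% ± 5.39 in BXD, 72.1% ± 5.32 in model and 37.8% ± 2.89 in control vessels (SD, n = 3 each). Fzd6 took 25.0% ± 3.66 in BXD, 16.7% ± 3.88 in model and 38.5% ± 2.37 in control vessels. In the control libraries the levels of Fzd4 (44.8 to 49.4 FPKM) and Fzd6 (42.8 to 56.5 FPKM) overlapped, while in each stressed library Fzd4 exceeded Fzd6. The ratio of Fzd4 to Fzd6 in FPKM was 2.03 to 3.21 in BXD, 3.38 to 6.28 in model and 0.875 to 1.12 in control libraries. A share or ratio taken within a library does not depend on the scaling between libraries. For Fzd4 the share differed by 34.3 percentage points between model and control and by 24.1 between BXD and control, without overlap in either case. With 3 against 3 libraries an exact permutation test (two-sided) cannot go below p = 0.1, which both comparisons reached, and over 36 such share comparisons the adjusted value was 0.18.

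**Figure D2:**
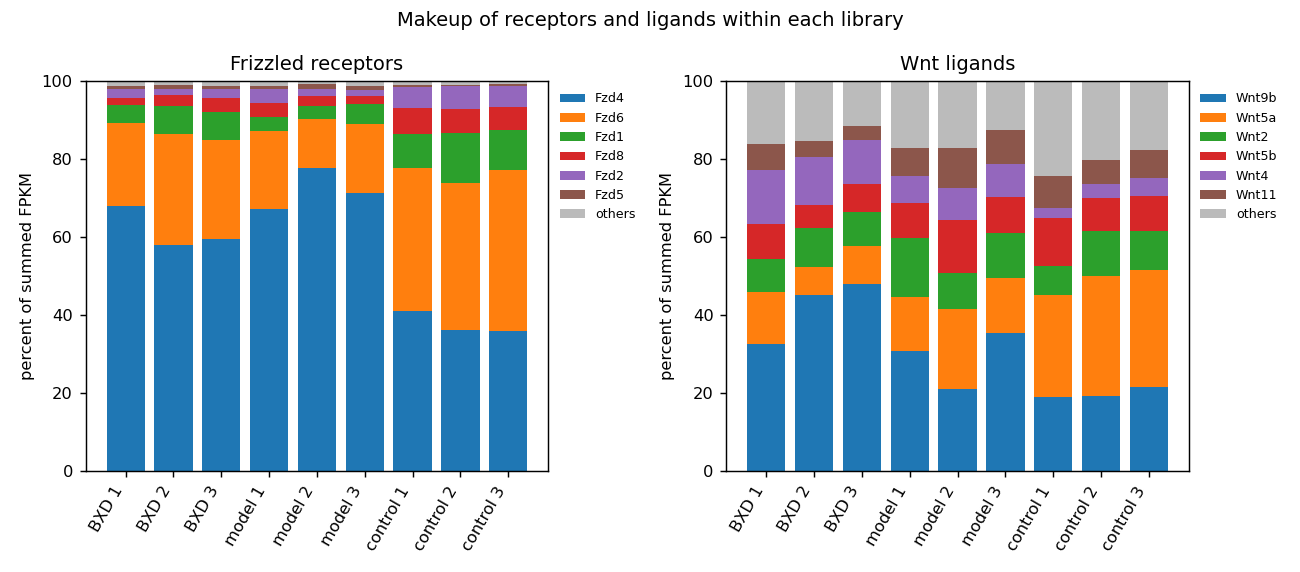
Percent of the summed FPKM of the Frizzled receptors (left) and of the Wnt ligands (right) taken by each gene, with 1 stacked bar per library for BXD, model and control. Fzd4 (blue, left) filled 58.0 to 68.0% of the bar in BXD, 67.2 to 77.8% in model and 36.0 to 41.1% in control libraries. Wnt5a (orange, right) filled 7.32 to 13.4% in BXD, 13.9 to 20.5% in model and 26.2 to 30.8% in control libraries.

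The co-receptors Lrp5 and Lrp6, which pair with Frizzleds on the beta-catenin route, were called in opposite directions in model against control. Lrp6 had 58.4, 67.7 and 73.4 CPM in BXD, 91.4, 133 and 92.5 CPM in model and 65.6, 65.0 and 50.4 CPM in control libraries. Only the model libraries stood apart, above all others, at 1.75-fold over control (log2 fold change 0.81, SE 0.18, edgeR adjusted p = 0.00691), and the call held whichever library was left out. Lrp5 had 121, 103 and 67.1 CPM in BXD, 95.6, 87.8 and 95.5 CPM in model and 131, 133 and 163 CPM in control libraries. Both stressed groups lay below control. The log2 fold change was -0.62 (SE 0.19, edgeR adjusted p = 0.0311) for model, a call lost without control replicate 2 or 3 or any of the 3 model replicates (adjusted p up to 0.0983), and -0.56 (95% interval -0.99 to -0.12, adjusted p = 0.0565) for BXD. DESeq2, limma-voom and limma on FPKM called Lrp5 lower in BXD against control. So did library size alone, upper quartile scaling and the fit without BXD replicate 1, while the authors' DESeq2 q-value was 0.069. Of the summed co-receptor FPKM, Lrp6 made up 35.2% ± 9.42 in BXD, 46.1% ± 6.54 in model and 24.6% ± 4.83 in control vessels (SD, n = 3 each), with no overlap between model and control (exact permutation p = 0.1, the smallest possible).

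Of 18 Wnt ligands, 12 had enough counts to test. Wnt5a, the best known ligand of the beta-catenin-independent routes, had 22.4, 21.7 and 22.4 CPM in BXD, 26.6, 32.0 and 26.6 CPM in model and 50.8, 62.7 and 51.5 CPM in control libraries. No BXD library reached a model library, and no model library reached a control library. It fell by 0.95 on the log2 scale in model against control (SE 0.12, edgeR adjusted p = 0.000791) and by 1.31 in BXD against control (SE 0.12, adjusted p = 0.000528). Both calls held whichever library was left out. Between BXD and model the log2 fold change was -0.36 (95% interval -0.63 to -0.08) and did not pass (adjusted p = 0.159).

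Wnt4, a ligand known from kidney, gonad and muscle development, ran opposite to Wnt5a. It had 5.01, 7.69 and 5.81 CPM in BXD, 2.98, 2.78 and 3.65 CPM in model and 0.994, 1.49 and 1.75 CPM in control libraries. The groups did not overlap, with BXD highest and control lowest. Wnt4 was 2.21-fold higher in model than in control (log2 fold change 1.14, SE 0.29, edgeR adjusted p = 0.0135) and 4.34-fold higher in BXD than in control (log2 fold change 2.12, SE 0.29, adjusted p = 0.00153), whichever library was left out. Between BXD and model the log2 fold change of 0.97 (95% interval 0.35 to 1.60) did not pass (adjusted p = 0.125). Counts were low, between 14 and 98 per library.

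The promoters of Wnt5a and Wnt4 are shown because these ligands were called in opposite directions in both comparisons with control. RefSeq places them on the plus strand of GRCr8, Wnt5a at chr16:3703415-3703714 and Wnt4 at chr5:154797200-154797499. Neither holds a TCF/LEF site. They differ in base composition, with 58.3% G and C for Wnt5a and 83.3% for Wnt4, against a median of 52.3% over all promoters of the same length.
Wnt5a: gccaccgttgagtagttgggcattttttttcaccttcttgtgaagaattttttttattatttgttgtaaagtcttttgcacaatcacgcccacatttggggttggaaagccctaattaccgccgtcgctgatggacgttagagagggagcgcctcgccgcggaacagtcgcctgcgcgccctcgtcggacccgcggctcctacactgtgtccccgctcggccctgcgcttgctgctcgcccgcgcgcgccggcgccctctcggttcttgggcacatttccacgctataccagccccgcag
Wnt4: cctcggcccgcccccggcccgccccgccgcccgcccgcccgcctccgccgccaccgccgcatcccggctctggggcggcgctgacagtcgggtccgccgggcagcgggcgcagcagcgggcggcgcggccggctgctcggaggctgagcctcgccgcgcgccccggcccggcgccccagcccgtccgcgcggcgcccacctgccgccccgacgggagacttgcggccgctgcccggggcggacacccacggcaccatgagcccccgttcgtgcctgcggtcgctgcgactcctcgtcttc

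Wnt9b, a ligand known from kidney development, had 56.2, 135 and 117 CPM in BXD, 62.9, 34.1 and 72.5 CPM in model and 36.8, 38.0 and 36.9 CPM in control libraries. The control libraries were close together, all BXD libraries lay above them, and the model libraries fell on both sides. Wnt9b was 2.76-fold higher in BXD than in control (log2 fold change 1.46, SE 0.34, edgeR adjusted p = 0.0123), whichever library was left out. In model against control the log2 fold change of 0.60 (95% interval -0.16 to 1.36, adjusted p = 0.176) did not pass.

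The order of the leading ligands differed between the groups on the FPKM scale. Wnt9b had 11.9, 30.2 and 26.3 FPKM in BXD, 13.4, 6.78 and 16.2 FPKM in model and 9.07, 9.93 and 9.49 FPKM in control libraries. Wnt5a had 4.88, 4.91 and 5.44 FPKM in BXD, 6.05, 6.60 and 6.48 FPKM in model and 12.5, 15.9 and 13.2 FPKM in control libraries. Wnt9b exceeded Wnt5a in each stressed library and Wnt5a exceeded Wnt9b in each control library. Wnt4, at 5.06, 8.13 and 6.20 FPKM in BXD, exceeded Wnt5a in each BXD library, although the ranges overlapped, and lay below it in every model and control library. Of the summed ligand FPKM, Wnt5a made up 10.2% ± 3.04 in BXD, 16.2% ± 3.73 in model and 29.0% ± 2.42 in control vessels, and Wnt9b 41.8% ± 8.12 in BXD, 29.1% ± 7.31 in model and 19.9% ± 1.38 in control vessels (SD, n = 3 each). The Wnt5a shares did not overlap between any of the groups, while the Wnt9b shares were separate only for BXD and control. Each separation reached the smallest exact permutation p of 0.1 and an adjusted value of 0.18 over the 36 share comparisons.

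Wnt6 had 2.17, 1.73 and 2.04 CPM in BXD, 2.19, 2.42 and 2.35 CPM in model and 10.0, 5.32 and 2.38 CPM in control libraries. Control replicate 3 lay among the model libraries, and control replicate 1 was the highest. The log2 fold changes were -1.34 (SE 0.45, edgeR adjusted p = 0.0374) for model and -1.57 (SE 0.45, adjusted p = 0.0275) for BXD against control. Both calls were lost with limma-voom and with a fit to 2 groups only. The model call was also lost without control replicate 1 or 2, any model replicate or BXD replicate 2 (adjusted p up to 0.153), and the BXD call without control replicate 1 or 2 or any BXD replicate (adjusted p up to 0.0996).

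Wnt7a, scarce here and known for its part in blood vessels of the brain, had 0.918, 1.80 and 0.830 CPM in BXD, 0.876, 0.538 and 0.608 CPM in model and 0.568, 0.325 and 0.280 CPM in control libraries, from 4 to 23 counts. BXD lay above control without overlap, and model overlapped with control. The log2 fold change was 1.58 (SE 0.47, edgeR adjusted p = 0.0323) for BXD against control, a call lost without control replicate 2 or 3, model replicate 3 or BXD replicate 2 (adjusted p up to 0.143) and also with library size alone, with no low-count filter and by limma on FPKM. The value was 0.77 (95% interval -0.34 to 1.89, adjusted p = 0.233) for model against control.

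The other 7 tested ligands were not called by edgeR in any comparison. Among them, Wnt10b was called lower in model against control by limma on FPKM and with library size alone. In FPKM, Wnt2 ran from 2.94 to 6.61 over the 9 libraries, Wnt5b from 3.22 to 5.85, Wnt11 from 2.01 to 3.98, Wnt9a from 1.53 to 3.96, Wnt16 from 1.28 to 2.83, Wnt10b from 0.380 to 1.21 and Wnt2b from 0.220 to 1.22. Wnt10b shares 1161 bases with Wnt1 on the opposite strand, and since the labels name no stranded kit the reads of that stretch cannot be assigned to either. The other 6 ligands were too scarce to test, with summed counts over the 9 libraries of 31 for Wnt8b, 25 for Wnt1, 19 for Wnt10a, 5 for Wnt3, 3 for Wnt3a and 1 for Wnt8a. Wnt3a and Wnt3 are, among the genes described here, the nearest to Wnt9a and Wnt9b, at 15893 and 22647 bases on Rnor_6.0. They were nearly silent beside these neighbours.

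**Figure D3:**
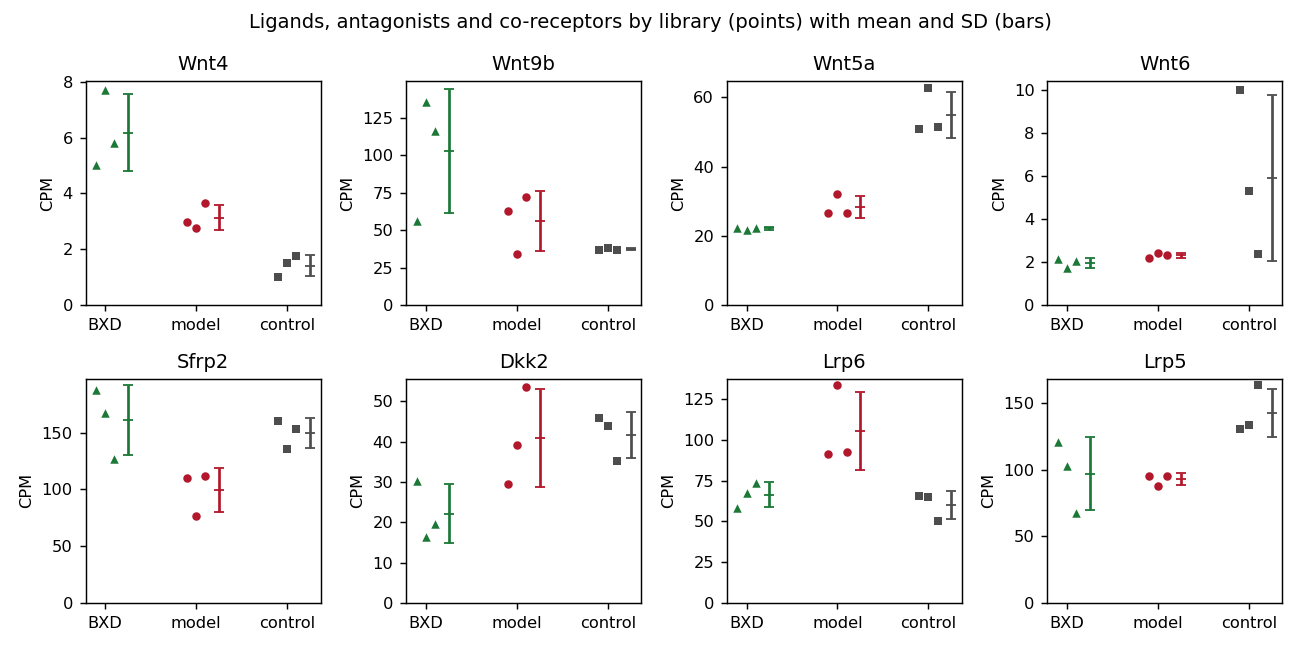
Level in CPM of 8 genes called in at least 1 comparison, with libraries as points and the mean and SD of each group of 3 as bars, in the order BXD, model and control. Wnt4 was highest in BXD and lowest in control, Wnt5a the reverse, and Lrp6 was highest and Sfrp2 lowest in model.

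The R-spondins, which amplify Wnt signals through Lgr receptors, were not called in any of the 3 comparisons by edgeR (0 of 4). Of all tested genes 42.2% were called in model against control, 0.0615% in BXD against model and 30.3% in BXD against control. At an unadjusted p under 0.05 there was 1 in model against control and 0 in BXD against control. The share over all genes at that threshold was not computed for these. In BXD against model there was 1, where 20.9% of all tested genes were under it. Rspo2 was called lower in model against control by limma on FPKM, with library size alone, under upper quartile scaling and without model replicate 1. Rspo3 was called lower in BXD against control by limma on FPKM. Rspo1 was the main one, at 7.56 to 9.36 FPKM in BXD, 6.01 to 8.86 FPKM in model and 8.40 to 12.1 FPKM in control libraries, and made up 88.2% ± 4.53 of the summed R-spondin FPKM in BXD, 86.8% ± 1.03 in model and 84.3% ± 4.75 in control vessels (SD, n = 3 each). Rspo2 had 3.84, 1.88 and 3.17 CPM in BXD, 2.19, 0.806 and 1.59 CPM in model and 2.70, 3.70 and 2.87 CPM in control libraries. Its model libraries lay below control, with a log2 fold change of -1.01 (95% interval -1.91 to -0.11, edgeR adjusted p = 0.0686) that did not pass. Rspo3 and Rspo4 had at most 1.52 and 0.630 FPKM in any library.

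Among the secreted antagonists, Sfrp2 was called lower in model and Dkk2 was called lower in BXD, each against control. Sfrp2, a stromal protein that binds Wnts through a Frizzled-like domain, had 188, 168 and 127 CPM in BXD, 110, 77.1 and 112 CPM in model and 161, 135 and 153 CPM in control libraries. The model libraries lay below all 6 others. The log2 fold change in model against control was -0.59 (SE 0.18, edgeR adjusted p = 0.029), and the call was lost without control replicate 1 or 3 or model replicate 2 (adjusted p up to 0.0829). An annotated gene on the opposite strand, LOC108350198, covers 7546 bases of Sfrp2, so reads of the pair cannot be told apart without strand. Fibroblast markers summed to 29988 to 38470 CPM in BXD, 22491 to 31874 CPM in model and 34482 to 47811 CPM in control libraries, and their part in the Sfrp2 difference was not tested.

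Sfrp4, Sfrp1 and Sfrp5 were not called by edgeR in any comparison. Of these, limma on FPKM and library size alone called Sfrp5 lower in model, and DESeq2 and a fit to 2 groups only called Sfrp1 higher in BXD, each against control. Sfrp2 and Sfrp4 were the most abundant secreted members by FPKM, and the 4 Sfrp genes together summed to 169 to 196 FPKM in BXD, 99.0 to 182 FPKM in model and 207 to 274 FPKM in control libraries. All BXD and all model sums lay below the control sums, on a scale where the median gene was also lower (log2 -0.23 in BXD and -0.28 in model, each against control). Sfrp1 had 87.1, 104 and 85.4 CPM in BXD, 82.5, 51.1 and 61.2 CPM in model and 73.3, 65.6 and 66.0 CPM in control libraries, with BXD above both others (log2 fold change 0.43, 95% interval 0.05 to 0.81, edgeR adjusted p = 0.0798 against control).

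Dkk2 had 30.3, 16.4 and 19.7 CPM in BXD, 29.6, 39.2 and 53.7 CPM in model and 45.9, 44.0 and 35.2 CPM in control libraries. BXD lay below control without overlap, and model spread across both. Its log2 fold change in BXD against control was -0.91 (SE 0.27, edgeR adjusted p = 0.0292), a call lost without control replicate 1 or 2 or BXD replicate 2 or 3 (adjusted p up to 0.0966). Dkk3, a divergent member that does not bind the co-receptors as the others do, had 58.4, 77.0 and 55.0 CPM in BXD, 65.7, 36.5 and 50.8 CPM in model and 76.7, 66.4 and 79.1 CPM in control libraries, and its log2 fold change of -0.54 in model against control (95% interval -1.01 to -0.07, adjusted p = 0.065) did not pass. DESeq2 and limma on FPKM called Dkk3 lower in model against control. So did library size alone, upper quartile scaling and the fit without model replicate 1, while the authors' DESeq2 q-value was 0.0591. Dkk4 had 9.10 to 11.4 CPM in BXD, 9.72 to 11.4 CPM in model and 7.67 to 9.11 CPM in control libraries, and Dkk1 had 10 counts in all. Wif1 had 2.82 to 4.15 CPM in BXD, 2.28 to 5.20 CPM in model and 1.23 to 2.41 CPM in control libraries, with a log2 fold change of 0.97 (95% interval 0.12 to 1.82, adjusted p = 0.0656) in model against control.

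**Figure D4:**
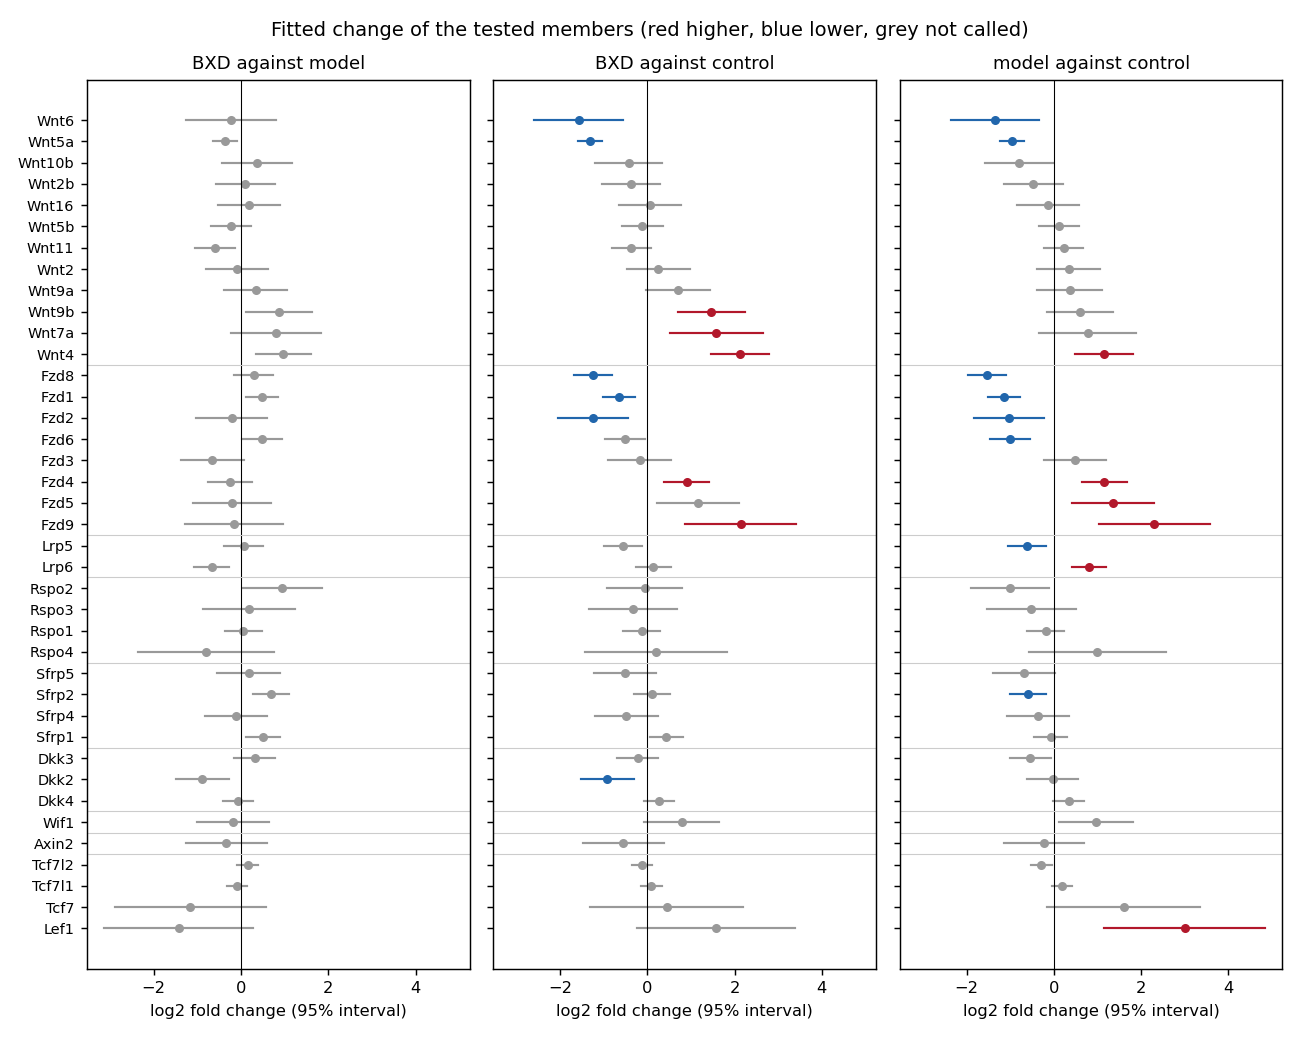
Fitted log2 fold change with its 95% interval for each of the 39 tested genes in BXD against model, BXD against control and model against control, grouped by role. Red marks genes called higher, blue genes called lower and grey genes not called by edgeR. The Frizzleds split into higher and lower calls in both comparisons with control, and all 39 intervals in BXD against model are grey.

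Axin2, a scaffold of the beta-catenin destruction complex whose gene is a widely used readout of beta-catenin signalling, was not called. It had 5.18, 9.57 and 8.91 CPM in BXD, 5.52, 7.08 and 17.2 CPM in model and 9.44, 12.2 and 13.1 CPM in control libraries. The groups overlapped, and the log2 fold change of -0.21 in model against control had a 95% interval of -1.13 to 0.70 (edgeR adjusted p = 0.693), and changes within that interval were not excluded. In BXD against control it was -0.55 (95% interval -1.48 to 0.37, adjusted p = 0.335). Model replicate 3 was the highest library. The Axin2 promoter is shown because it holds TCF/LEF sites, in capitals, at -232 (CTTTGAA) and -132 (CTTTGAT) from the annotated start. It lies on the plus strand of GRCr8 at chr10:94398535-94398834.
Axin2: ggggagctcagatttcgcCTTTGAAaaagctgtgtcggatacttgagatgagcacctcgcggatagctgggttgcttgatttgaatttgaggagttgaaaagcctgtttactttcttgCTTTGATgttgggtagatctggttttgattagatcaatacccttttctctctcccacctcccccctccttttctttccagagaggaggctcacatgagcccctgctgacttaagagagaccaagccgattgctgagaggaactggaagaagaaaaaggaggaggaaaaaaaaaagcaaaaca
A promoter was found for 33 of the 48 genes. The sites CTTTGAA or CTTTGAT were in 3 of these 33 (9.09%; Axin2, Tcf7 and Wnt8a), against 2373 of all 27457 promoters (8.64%), and in 0 of the 12 promoters of genes called in at least 1 comparison. A match is a string in a window and says nothing of binding.

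Lef1 and Tcf7 moved with single libraries. Lef1, a TCF/LEF factor of lymphocytes and of several epithelia, had 3.34, 16.2 and 4.76 CPM in BXD, 7.80, 11.7 and 45.7 CPM in model and 1.63, 2.66 and 3.86 CPM in control libraries. All model libraries lay above control, and model replicate 3 was far above the rest. The model level was 7.99-fold that of control (log2 fold change 3.00, SE 0.82, edgeR adjusted p = 0.0177). Without model replicate 3 the log2 fold change was 1.84 and the call was lost, as it was without control replicate 1 or 2, and over the 9 omissions the adjusted p ranged from 0.0121 to 0.0647. Tcf7 had 7.85, 35.2 and 14.9 CPM in BXD, 15.1, 18.0 and 96.1 CPM in model and 8.16, 14.9 and 19.7 CPM in control libraries and was not called, with overlapping groups.

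Transcripts of the CD3 chains were highest in model replicate 3 and BXD replicate 2, as were those of Lef1 and Tcf7. Other T cell markers did not all follow. Cd8a was highest in control replicate 2 (19.3 CPM, against 18.4 in model replicate 3 and 12.7 in BXD replicate 2). Cd4 was highest in model replicate 3 (139 CPM), but BXD replicate 2 (76.5 CPM) lay below every control library (86.4 to 99.7 CPM). The summed CPM of the T cell receptor chains Cd3d, Cd3e and Cd3g, picked after the values had been seen, was 7.68, 28.7 and 8.08 in BXD, 13.1, 15.2 and 74.9 in model and 4.47, 16.4 and 16.5 in control libraries. The 10 lymphocyte markers together summed to 148, 189 and 123 CPM in BXD, 178, 196 and 466 CPM in model and 143, 213 and 188 CPM in control libraries. By edgeR 0 of the 10 were called in any comparison. Over all tested genes 42.2% were called in model against control, 0.0615% in BXD against model and 30.3% in BXD against control. In model against control 9 of the 10 had a positive log2 fold change and 1 a negative one, with a median of 1.25. In BXD against model all 10 were negative, with a median of -0.92. At an unadjusted p under 0.05 there were 0 in model against control and 1, lower, in each comparison of BXD. At that threshold 9.84% of all tested genes were lower in BXD against model. None was at 0 in any library. Their part in the Lef1 difference was not tested. Of the other TCF factors, Tcf7l1 had 49.7 to 62.7 CPM and Tcf7l2 26.0 to 34.5 CPM over the 9 libraries, and edgeR called neither in any comparison. All model libraries lay above control for Tcf7l1 (log2 fold change 0.18, 95% interval -0.05 to 0.42) and below control for Tcf7l2 (log2 fold change -0.29, 95% interval -0.52 to -0.05, edgeR adjusted p = 0.0522). Tcf7l2 was called lower in model against control by limma on FPKM, in a fit to 2 groups only and under library size or upper quartile scaling, and lower in BXD against control by limma on FPKM and under library size scaling.

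**Figure D5:**
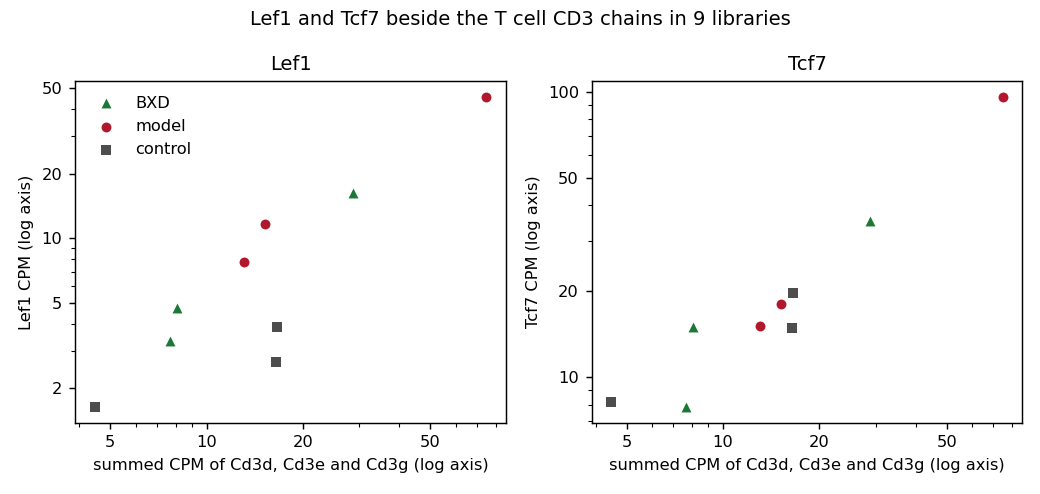
CPM of Lef1 (left) and Tcf7 (right) against the summed CPM of the T cell genes Cd3d, Cd3e and Cd3g, both on log axes, with 1 point per library for BXD, model and control. Model replicate 3 is highest on every axis (74.9 CPM of Cd3 genes, 45.7 of Lef1 and 96.1 of Tcf7) and BXD replicate 2 is next (28.7, 16.2 and 35.2 CPM).

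BXD and model vessels both came from stressed rats and differed in the decoction. By edgeR 0 of the 39 genes were called, where 0.0615% of all tested genes were, 0.0546% higher and 0.00683% lower. At an unadjusted p under 0.05 there were 7 higher and 4 lower, against 20.9% of all tested genes, 11% higher and 9.84% lower. DESeq2 called 4, Sfrp2 and Wnt4 higher and Lrp6 and Dkk2 lower, where it called 7.83% of all genes (641 higher and 466 lower), whereas limma-voom and limma on FPKM called 0. The smallest edgeR adjusted p was 0.116, for Lrp6 with a log2 fold change of -0.67 (95% interval -1.07 to -0.27) and for Sfrp2 with 0.69 (95% interval 0.28 to 1.10). For both genes the BXD and model libraries did not overlap, which held for 10 of the 39 genes, 4 higher and 6 lower, and for 22.4% of all tested genes, 10.5% higher and 11.8% lower. Values for Dkk2 (log2 fold change -0.89, 95% interval -1.49 to -0.29) and Wnt9b (0.86, 95% interval 0.11 to 1.62) had intervals clear of 0 with overlapping libraries, as had Rspo2 (0.95, 95% interval 0.04 to 1.85) and Fzd6 (0.48, 95% interval 0.03 to 0.94). Intervals clear of 0 with separate libraries were those of Wnt11 (-0.59, 95% interval -1.04 to -0.14), Fzd1 (0.48, 95% interval 0.11 to 0.85) and Sfrp1 (0.50, 95% interval 0.12 to 0.88), besides Wnt4 and Wnt5a, given above. For Fzd4 the interval ran from -0.76 to 0.26 and for Fzd8 from -0.15 to 0.73, so changes within those bounds were not excluded.

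BXD against control, which combines the stress and the decoction, called 11 of the 39 genes (28.2%), 5 higher (Fzd4, Fzd9, Wnt4, Wnt7a and Wnt9b) and 6 lower (Fzd1, Fzd2, Fzd8, Wnt5a, Wnt6 and Dkk2). Over all tested genes 30.3% were called, 16.1% higher and 14.3% lower. The libraries did not overlap for 9 genes that were higher and 10 that were lower in BXD, against 23.8% and 24.8% of all tested genes (48.6% together). The comparisons share the control libraries, so their calls are not independent of each other, and BXD libraries 1 and 3 carried the striated muscle transcripts given above.

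The authors' deposited DESeq2 q-values were read here at a threshold of 0.05. By these, 6 of the tested genes were higher and 8 lower in model against control, the same 14 genes in the same directions as here. Among the comparisons of BXD, the same threshold on the authors' q-values gave none against model and 6 higher and 7 lower against control, among them 10 of the 11 called here.

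Further genes of the pathway were read from lists of other components, chosen with results of these data known. Of 12 other inhibitors tested, 1 was called higher and 8 lower in model against control (75% called, against 42.2% of all tested genes) and 0 higher and 4 lower in BXD against control (33.3%, against 30.3%). Dact1 and Dact2, which bind Dishevelled, had log2 fold changes of -1.12 (edgeR adjusted p = 0.00124) and -0.88 (adjusted p = 0.00452) in model against control, and Sostdc1, a secreted antagonist of Lrp5 and Lrp6 and of BMPs, had -2.72 (adjusted p = 0.00256). Sostdc1 stood at 7.18, 4.71 and 3.02 CPM in BXD, 3.24, 3.05 and 2.05 CPM in model and 30.3, 14.6 and 9.95 CPM in control libraries, with no stressed library as high as a control library. In BXD against model 0 of the 12 were called, with a smallest adjusted p of 0.0959. At an unadjusted p under 0.05 there were 4 higher and 0 lower, against 11% higher and 9.84% lower over all tested genes.

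Of 5 R-spondin receptors and their ligases, 20% were called in each comparison with control (42.2% of all tested genes in model, 30.3% in BXD). The 1 called gene was lower in both. It was Lgr5, an R-spondin receptor and stem cell marker, at 4.26, 4.32 and 3.17 CPM in BXD, 1.84 to 2.51 CPM in model and 15.6, 6.88 and 5.40 CPM in control libraries, with all stressed libraries below control. Its log2 fold change was -2.08 (edgeR adjusted p = 0.00412) in model and -1.25 (adjusted p = 0.0361) in BXD against control. Porcn and Wls serve the export of Wnt proteins, and Trabd2b was listed with them though it is not an export gene. These were not called in any comparison (0 of 3 tested, and 0 at an unadjusted p under 0.05). Of 11 alternative receptors and partners, 1 was called higher and 1 lower in model against control (18.2%, against 42.2% of all tested genes). These were Tspan12, the Fzd4 partner in norrin signalling, with a log2 fold change of 0.54 (adjusted p = 0.011), and Cthrc1, a secreted cofactor of Wnt5a, with -0.98 (adjusted p = 0.00352).

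The shares called in the next lists are to be read against 42.2% of all tested genes in model against control, 21.6% higher and 20.6% lower. Of 20 genes of the cytoplasmic relay, 4 were called higher and 6 lower in that comparison (50%), among them the ubiquitin ligase Siah1 (log2 fold change 1.04, edgeR adjusted p = 0.000763), the kinase Csnk1a1 (0.72, adjusted p = 0.0016) and the scaffold Apc2 (-1.61, adjusted p = 0.00166). Beta-catenin itself, Ctnnb1, was not called (log2 fold change -0.24, 95% interval -0.51 to 0.03, adjusted p = 0.129). Of 17 nuclear cofactors (47.1% called) 4 were called higher, including the corepressor Tle3 at 1.46 (adjusted p = 0.000474), and 4 lower, including the beta-catenin coactivator Bcl9 at -1.09 (adjusted p = 0.00243). Of 17 planar polarity genes (64.7% called) 6 were higher and 5 lower, with Prickle3 at -0.86 (adjusted p = 0.000755), Celsr2 at -1.98 (adjusted p = 0.00245) and Invs at -1.30 (adjusted p = 0.00274). Of 18 genes of the calcium branch (33.3% called) 3 were higher and 3 lower, led by the kinases Map3k7 at 0.71 (adjusted p = 0.000691) and Nlk at -1.18 (adjusted p = 0.000972).

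Of 19 tested genes known as Wnt targets in other tissues, 2 were called higher and 6 lower in model against control (median log2 fold change -0.29, against -0.01 over all genes) and 2 higher and 3 lower in BXD against control. This list shares genes with others, so its counts are not separate from theirs. Among the shared genes are Lgr5 and Nkd1, in the lists above, and Prox1, a lymphatic marker. The share called was 42.1% in model against control and 26.3% in BXD against control, near the 42.2% and 30.3% of all tested genes. Ppard, a lipid-sensing nuclear receptor, had 155, 118 and 110 CPM in BXD, 141, 176 and 119 CPM in model and 33.9, 33.2 and 30.5 CPM in control libraries, 4.47-fold higher in model than in control (log2 fold change 2.16, edgeR adjusted p = 0.000225). Ccnd1, the cell cycle regulator cyclin D1, had 58.6, 66.1 and 51.7 CPM in BXD, 63.0, 40.2 and 63.4 CPM in model and 158, 150 and 170 CPM in control libraries, 2.87-fold lower in model than in control (log2 fold change -1.52, adjusted p = 0.000616). For both genes all stressed libraries lay on one side of all control libraries. Msx1, a homeobox factor, was lower in model against control as well (log2 fold change -1.48, adjusted p = 0.00158). In BXD against model 0 genes of any of these lists were called by edgeR, where 0.0615% of all tested genes were. Of the 19 target genes 14 had a positive and 5 a negative log2 fold change in that comparison, with a median of 0.42. At an unadjusted p under 0.05, 6 targets were higher and 0 lower, against 11% higher and 9.84% lower over all tested genes.

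Cell type markers were read first in the same comparison of model against control, where 21.6% of all tested genes were called higher and 20.6% lower. Of the fat cell markers 9 of 10 were called higher and 0 lower, of smooth muscle 0 higher and 6 of 10 lower, of macrophages 4 of 8 higher, of fibroblasts 3 of 10 lower, of blood endothelium 2 of 9 lower and of nerve and glia 1 higher and 4 lower of 10. Of 11 tested lymphatic endothelial markers 1 was higher, Lyve1 (log2 fold change 1.45), and 2 were lower, Prox1 (-1.83) and Foxc2 (-1.01). Of 3 tested mesothelial markers 2 were called higher and 0 lower, and Msln and Wt1 were higher in every model library than in any control library. Mesothelial markers summed to 60.7 CPM in model replicate 1, against at most 8.35 CPM in the other libraries. Gastric epithelial markers summed to at most 4.86 CPM in any library. In BXD against control 10 of 10 striated muscle and 6 of 10 fat cell markers were called higher (16.1% of all tested genes). Of smooth muscle, striated muscle, fat cell and macrophage markers 0 were called in BXD against model. At an unadjusted p under 0.05, 9 of 10 smooth muscle and 10 of 10 striated muscle markers were higher there (11% of all tested genes). Fat cell (6 of 10) and macrophage markers (5 of 8) were lower (9.84%). The part of these cell types in the differences of the Wnt genes was not tested.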

How the data were processed

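Sequencing was of poly(A) RNA from 9 rat gastric lymphatic vessel samples, per the labels' protocols. Build Rnor_6.0, HISAT2 2.2.4 and Bowtie2 2.2.5 appear in the submitters' processing notes. The counting tool and any use of strand are not given in the sources used here. For each gene the authors deposited estimated counts, 88.8% of them whole within 1e-09, with FPKM values beside them, per the file headers. A second deposited table holds DESeq2 results of the authors, per the file headers: log2 fold changes, p-values and q-values. A further 54 columns of per-sample values were not used.

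Estimated counts were rounded, filtered with filterByExpr (minimum count 10, minimum total 15) and scaled with TMM (trimmed means of M-values, factors 0.873 to 1.15). An edgeR 4.0.16 quasi-likelihood model (R 4.3.3) with the group as its only term was fitted to all 9 libraries and 14643 genes, leaving 6 residual degrees of freedom, and tested on simulated data first. Its biological coefficient of variation was 23.3%. CPM use TMM-scaled library sizes, and 3 counts correspond to 0.195 to 0.269 CPM. Benjamini-Hochberg adjustment ran over all genes tested, with a threshold of 0.05. Replicates differed beyond sampling noise (chi-square per degree of freedom 14.0 to 52.1). Alternatives used DESeq2 1.42.0, limma 3.58.1 on log2(FPKM + 0.1), other scalings, no filter, a replicate block, 2 groups only and each library left out.

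The genes, lists and tests were chosen with earlier results of these data known. Each gene called in at least 1 comparison is given in all libraries, and of each further list up to 3 called genes with the smallest p in model against control are named. Ctnnb1, Porcn, Wls, Trabd2b, Cd4, Cd8a and the Cd3 genes, named outside that rule, were chosen after their values were seen. Promoters come from RefSeq tables of build GRCr8, whereas gene distances were computed from the authors' coordinates (Rnor_6.0). Floors of low counts cover counting error only, whereas the 95% intervals of fold changes come from the edgeR fit and include the spread between libraries.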

Additional observations from a re-analysis of the deposited data

How the results depend on the processing

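Of 449 recomputed fold changes of called genes under 18 alternatives, 382 kept their call, 67 lost it and 0 reversed. The model against control calls of Fzd1, Fzd4, Fzd6, Fzd8, Fzd9, Lrp6, Wnt4 and Wnt5a and the BXD against control calls of Fzd8, Wnt4, Wnt5a and Wnt9b held under all alternatives in which they were fitted. The median log2 fold change of all genes in model against control was -0.01 with TMM (51.2% of calls higher), -0.14 by upper quartiles (37.7%), -0.28 by library size alone (24.8%) and -0.28 on FPKM (25.2%). With library size alone, 13 members were lower in model against control and all genes split into 1619 higher and 4910 lower; FPKM with limma gave 13, 1635 and 4849. In BXD against control, the split was 1370 higher and 3602 lower with library size alone and 1292 and 3577 with FPKM, which called 10 members lower. In BXD against control the higher share of calls was 53.0% (TMM), 37.2% (upper quartiles), 27.6% (library size alone) and 26.5% (FPKM). In BXD against model, DESeq2 called 2 members higher and 2 lower, and 641 and 466 of all genes; the higher count of all genes, 8 by the fit reported, was 15 with no filter, 2 with limma-voom, 24 with FPKM, 0 with 2 groups only and 0 with the replicate block. DESeq2 also called Wif1 higher and Dkk3 and Fzd7 lower in model against control, and Sfrp1 higher and Lrp5 lower in BXD against control. By counts in place of FPKM, a choice made after seeing the data, the Wnt5a share differed by -16.0 points for model and -22.6 for BXD against control.

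Same-numbered replicates did not deviate together over all genes (correlations -0.43 to 0.0859, 0 of 9 over 0.1). The labels do not say whether the numbers pair the samples. A small shared effect could go unseen here, since larger differences between libraries enter the same correlations. The replicate block left 3 members higher in BXD against control and 5 higher and 6 lower in model against control, with 7 of 25 calls lost (Fzd5, Lrp5 and Wnt6 in model, and Dkk2, Fzd9, Wnt6 and Wnt7a in BXD, each against control).

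Leaving out 1 library at a time gave 4 to 7 members higher and 5 to 9 lower in model against control, 0 to 0 in either direction in BXD against model, and 2 to 6 higher and 2 to 7 lower in BXD against control. The 5 lower in model against control came without control replicate 1 or 2 or model replicate 2 or 3. In BXD against control the 2 higher came without control replicate 3 (3 without control replicate 2), and the 2 lower without control replicate 2 (3 without control replicate 1, BXD replicate 2 or BXD replicate 3). All genes ran from 2130 to 3474 higher and 2103 to 3416 lower in model against control, 0 to 135 and 1 to 19 in BXD against model, and 1439 to 2594 and 1289 to 2253 in BXD against control. The highest of the BXD against model counts came without BXD replicate 1 (135 higher, 19 lower). Share differences ran from 31.5 to 36.7 and 21.0 to 26.0 points for Fzd4, -15.0 to -11.7 and -20.4 to -17.4 for Wnt5a, 6.04 to 13.2 and 18.9 to 26.6 for Wnt9b and 17.7 to 23.5 and 5.54 to 14.8 for Lrp6, for model and for BXD against control. Low counts limit the 9 untested members and tested ones such as Rspo4, Wnt7a, Rspo3, Fzd9 and Fzd5 (80, 86, 106, 126 and 156 counts in all). The causes of these shifts were not tested.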
